A study of Mus musculus with 12 samples.

Results

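The comparison set Nlrp3-/- against wild-type bone marrow-derived macrophages (BMDMs) that had both received lipopolysaccharide (LPS) and adenosine triphosphate (ATP). It used 6 of the 12 RNA sequencing libraries of the series, 3 from each genotype, and the 6 control libraries of both genotypes were set beside them. Genes were taken from a table of FPKM, a unit that divides the fragments of a gene by its length and by the size of the library. Of 55335 genes in the table, 12622 reached an FPKM of 1 in at least 3 of the 12 libraries, and the 12174 autosomal ones are described here.

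Each genotype, WT and Nlrp3-/-, was sequenced unstimulated (control) and after LPS+ATP, with 3 libraries in each of the 4 groups. The cells were grown from the marrow of C57BL/6 mice with M-CSF, and the adherent cells were taken as BMDMs. The wild-type and the Nlrp3-/- mice came from different suppliers, and no library came from cells in which Nlrp3 was put back. The sample labels give 4 hours of LPS and then 30 minutes of ATP, whereas the methods of the study give longer exposures. Nothing in the labels says whether the 3 libraries of a group came from separate animals, so p-values measure only the spread between these libraries.

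LPS is sensed by TLR4, which drives the transcription of cytokines and chemokines through NF-kB and, through type I interferon, a later wave of antiviral genes. ATP opens the P2X7 channel, and the loss of potassium that follows lets NLRP3 assemble with ASC and caspase-1, which matures IL-1beta and IL-18. BMDMs divide in response to M-CSF, and LPS is known to stop their division while it turns their metabolism towards glycolysis, itaconate and nitric oxide.

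Nlrp3 (ENSMUSG00000032691, on chromosome 11), the targeted gene, was 32.1, 33 and 33.6 FPKM in the WT LPS+ATP libraries and was listed at 0 in all 6 Nlrp3-/- libraries. It was 9.24, 9.71 and 10.1 FPKM in WT control. All 12 libraries therefore carried the Nlrp3 level that their labels call for. Over the tested genes, libraries of one group correlated with Pearson's r between 0.989 and 0.992 on the log2 scale, and the 2 genotypes with LPS+ATP with r between 0.962 and 0.965. The depth in reads is not given by FPKM. From the steps between low values, the relative depth of the libraries ran from 1.00 to 1.22.

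Genotype went together with other properties of the libraries. Xist, the RNA of the inactive X, ran from 32.8 to 56.3 FPKM in Nlrp3-/- and did not exceed 0.0416 in wild-type libraries. Y-linked Ddx3y, Eif2s3y, Uty and Kdm5d were at 0 in every Nlrp3-/- library and above 0 in every wild-type one. The sex of the donors and the genotype cannot be told apart for any autosomal gene. Nnt, a mitochondrial transhydrogenase that is deleted in part in the C57BL/6J substrain, was 4.17, 4.09 and 4.42 FPKM in WT LPS+ATP and 0.67, 1.04 and 0.969 in Nlrp3-/- LPS+ATP.

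Macrophage genes dominated both cultures. The 12 macrophage markers, among them Lyz2, Cd68, Csf1r and Adgre1, summed to between 11833 and 11931 FPKM in WT LPS+ATP and between 11177 and 11448 in Nlrp3-/- LPS+ATP, and 0 of the 12 differed by 2-fold. Markers of other cells of the marrow were higher in the Nlrp3-/- cultures. The 20 fibroblast and mesenchymal markers summed to between 389 and 404 FPKM in WT LPS+ATP and between 1840 and 1857 in Nlrp3-/- LPS+ATP. The 18 markers of neutrophils and their precursors summed to between 487 and 505 FPKM and between 850 and 857 FPKM in the same order. None of these 2 lists' markers was at 0 in every library of a group. The sums of the 14 lymphocyte markers (10.3 to 10.8 against 19.2 to 20.7 FPKM), the 10 dendritic cell markers (12 to 14.3 against 20.3 to 20.8), the 10 mast cell and basophil markers (4.76 to 5.06 against 7.23 to 7.67), the 9 erythroid markers (2.02 to 3.15 against 5.07 to 6.29) and the 8 osteoclast markers (146 to 149 against 247 to 251) lay higher in the Nlrp3-/- cultures too. Defining genes at 0 in all 6 stimulated libraries included Cd209a, Siglech, Fcer1a, Tpsb2 and Cma1. The part of these cells in the differences below was not tested. In bulk RNA, fewer cells of a type and less RNA per cell cannot be told apart.

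With LPS+ATP, 546 autosomal genes (4.48% of those tested) were higher and 67 (0.550%) were lower in Nlrp3-/- than in wild-type BMDMs. A gene was called when its adjusted p by limma was under 0.05 and its means differed by at least 2-fold on log2(FPKM + 1), on which changes of weakly expressed genes come out too small. The libraries of the 2 genotypes did not overlap for 546 of the 546 higher and 65 of the 67 lower genes. A call by adjusted p and fold already favours such separation, so this count adds no separate support. The same comparison in control called 735 genes higher (6.04%) and 81 lower (0.665%). Of the genes called with LPS+ATP, 375 of the 546 higher ones were also called higher in control, but 22 of the 67 lower ones were also called lower. The genotype difference itself differed between LPS+ATP and control for 88 genes with a positive interaction term (0.723%) and 175 with a negative one (1.44%) under the same limits.

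**Figure D1:**
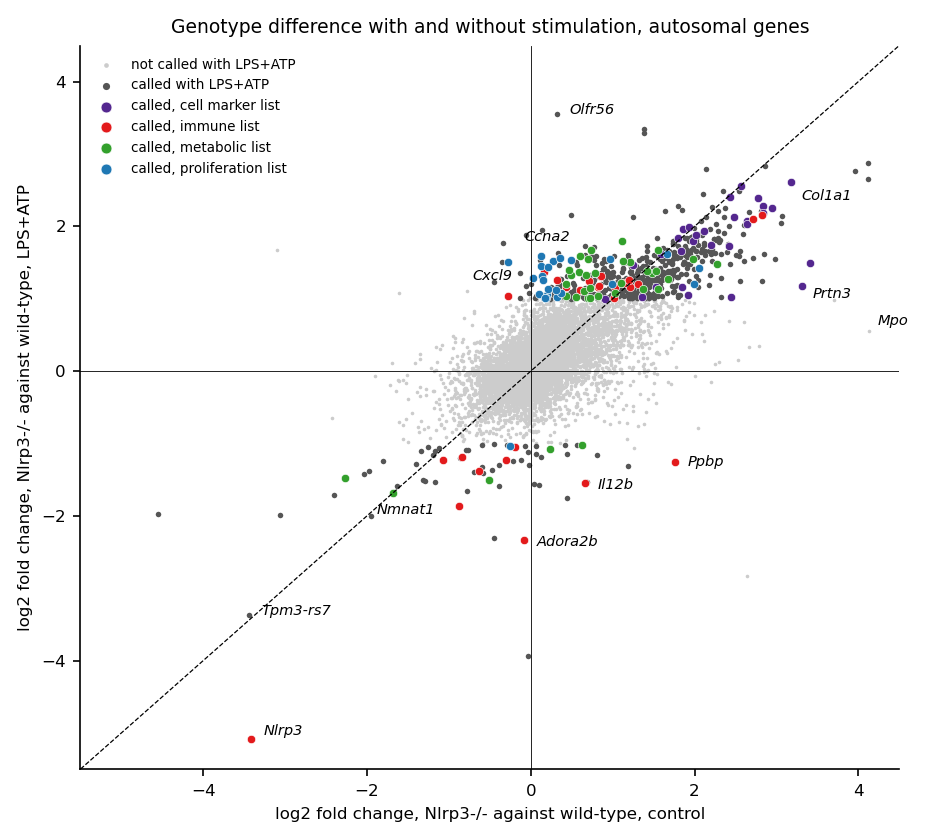
Each point is 1 of the 12174 autosomal genes, with its log2 fold change between Nlrp3-/- and wild-type BMDMs in control on the x axis and with LPS+ATP on the y axis, both on log2(FPKM + 1). Dark and coloured points were called with LPS+ATP, colours give the theme of the gene list and the dashed line marks equal differences. Cell-cycle genes such as Ccna2 lie near 0 on the x axis and above 1 on the y axis, and Il12b and Ppbp are above 0 in control and below -1 with LPS+ATP. In control Il12b was under 1 FPKM in both genotypes.

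Without the fold limit, 4357 genes (35.8%) were higher and 1539 (12.6%) lower at an adjusted p under 0.05. This split depends on how the libraries are scaled. After median-ratio scaling, which takes the median over all genes from 0.106 to -0.041 on the log2 scale (a shift of -0.146), 2756 genes were higher and 3318 lower. The median of a gene list is to be read against that of all genes under the same scaling. Of the 546 higher genes 545, and of the 67 lower genes 67, kept their direction and an adjusted p under 0.05 after this scaling, although some then fell under 2-fold. Among the genes named below these were Cxcl3, Lif, Dusp2, Cd74, H2-Q7, C1s1, Psph, Aldh18a1, Impdh2, Cad, Srm, Slc39a14, Anln, Ckap2, Ube2c, Lig1 and Mcm7, with log2 fold changes between 0.82 and 0.997. In all, 916 genes were placed in 36 lists, of which 806 were autosomal and passed the filter, 80 were below it, 29 were not autosomal and 1 was not in the table.

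**Figure D2:**
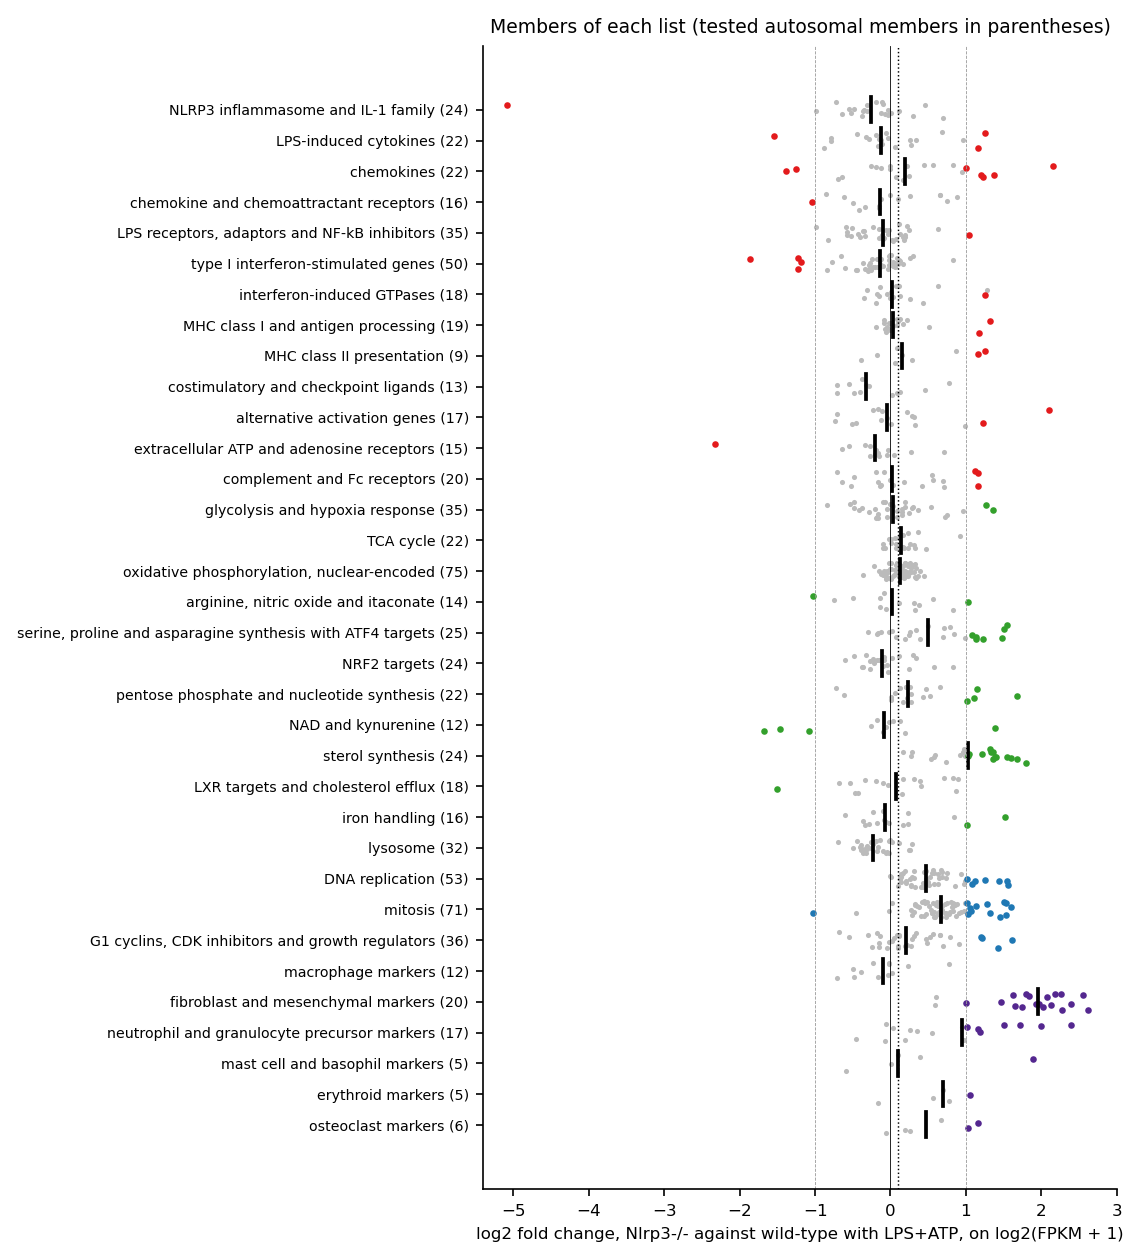
Each point is 1 tested member of a gene list, placed by its log2 fold change between Nlrp3-/- and wild-type BMDMs with LPS+ATP. Coloured points were called, short black lines are list medians and the dotted line is the median of all genes, 0.106. The medians of the mitosis, sterol synthesis, fibroblast and granulocyte lists lie at 0.667, 1.03, 1.95 and 0.955, whereas those of the inflammasome, costimulatory and lysosome lists lie below 0.

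The 13 immune lists held 278 tested genes, of which 17 (6.12%, against 4.48% of all genes) were called higher and 10 (3.6%, against 0.550%) lower in Nlrp3-/- BMDMs with LPS+ATP. The targeted gene, Nlrp3, is among the 10. The secreted signals moved both ways. In the list of LPS-induced cytokines, 2 of 22 genes were higher and 1 was lower. Il12b, which encodes the p40 subunit that IL-12 and IL-23 share, was 37.4, 36.1 and 37.3 FPKM in WT LPS+ATP and 11.8, 11.5 and 12.8 in Nlrp3-/- LPS+ATP. Every Nlrp3-/- library was lower than every wild-type library (log2 fold change -1.54 ± 0.089 SE, adjusted p = 9.69e-08 by limma). In control the order was the other way round, with 0.113 ± 0.105 FPKM in wild-type and 0.771 ± 0.202 in Nlrp3-/- BMDMs (mean ± SD, n = 3 each), with an interaction term of -2.21 (adjusted p = 5.95e-07 by limma).

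Csf1, the growth factor M-CSF that macrophages depend on, was 22.8, 25.1 and 23.1 FPKM in WT LPS+ATP and 58.4, 57.7 and 57.7 in Nlrp3-/- LPS+ATP. It was 2.45-fold higher in the Nlrp3-/- cultures, without overlap (log2 fold change 1.26 ± 0.039 SE, adjusted p = 7.84e-10 by limma). Lif, a cytokine of the IL-6 family, was 12.9 ± 0.371 against 29.9 ± 0.688 FPKM (SD, n = 3 each, log2 fold change 1.16 ± 0.075 SE, adjusted p = 2.55e-07 by limma). Both differences were also present in control, at log2 fold changes of 1.20 and 1.03. The median log2 fold change of the cytokine list was -0.123 (all genes 0.106), or -0.309 after median-ratio scaling (all genes -0.041).

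Among 22 chemokines, 5 were called higher and 2 lower (22.7% and 9.09%, against 4.48% and 0.550% of all genes). In control, 9 were called higher and 2 lower, where 6.04% and 0.665% of all genes were. Cxcl5, a ligand of CXCR2 that draws neutrophils, was 13.6, 13.4 and 13.7 FPKM in WT LPS+ATP and 64.9, 60.4 and 66.1 in Nlrp3-/- LPS+ATP, the largest rise of the list (log2 fold change 2.15 ± 0.071 SE, adjusted p = 1.24e-09 by limma). Cxcl9, a ligand of CXCR3 that interferon-gamma induces, was 175, 192 and 189.9 against 484, 472 and 487 FPKM. Its genotypes were apart by 2.59-fold with LPS+ATP (log2 fold change 1.37 ± 0.075 SE, adjusted p = 6.60e-08 by limma) and did not pass the test in control, at 0.16 on the log2 scale and an adjusted p of 0.107 by limma, with an interaction term of 1.21 (adjusted p = 1.15e-05 by limma). Ccl22, a ligand of CCR4, rose by 1.22, Cxcl14 by 1.21 and Cxcl3, another CXCR2 ligand, by 1.01 on the log2 scale. Cxcl3 was under the 2-fold limit without replicate 1 of either genotype (0.99 both times).

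The chemokines that were lower were Ccl12, a ligand of CCR2 that attracts monocytes, and Ppbp, the precursor of the neutrophil attractant CXCL7. Ccl12 was 64.3, 75.5 and 67.2 FPKM in WT LPS+ATP and 27.6, 24.8 and 24.9 in Nlrp3-/- LPS+ATP (log2 fold change -1.39 ± 0.13 SE, adjusted p = 6.03e-06 by limma). Ppbp was 80.4, 80.8 and 79.9 against 35, 31.4 and 33 FPKM (log2 fold change -1.25 ± 0.062 SE, adjusted p = 3.24e-08 by limma). In control it had the opposite order, with 35, 29.96 and 29 FPKM in wild-type and 112, 106 and 106 in Nlrp3-/- BMDMs, so that stimulation went with a rise of Ppbp in wild-type and a fall in Nlrp3-/- BMDMs. The interaction term, -3.01 (adjusted p = 5.18e-09 by limma), was the most negative of the named immune genes.

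The receptors for chemokines and chemoattractants held 16 tested genes, of which 0 were called higher and 1 was called lower (6.25%, against 0.550% of all genes). Ccr1, which binds CCL3 and CCL5, was 22.6, 21.6 and 21.7 FPKM in WT LPS+ATP and 9.9, 10.05 and 10.4 in Nlrp3-/- LPS+ATP (log2 fold change -1.05 ± 0.040 SE, adjusted p = 4.19e-09 by limma). In control it was 39.3 ± 1.84 against 34.1 ± 0.885 FPKM (mean ± SD, n = 3 each). Of 35 LPS receptors, adaptors and NF-kB inhibitors, 1 was called higher (2.86%, against 4.48% of all genes), Dusp2, a phosphatase of nuclear MAP kinases. It was 1.27, 0.80 and 1.08 against 3.04, 3.52 and 3.09 FPKM with LPS+ATP, and the groups did not overlap (log2 fold change 1.04 ± 0.080 SE, adjusted p = 1.00e-06 by limma). In control its log2 fold change had the other sign, -0.27, with an interaction term of 1.32 (adjusted p = 1.05e-05 by limma). Dusp2 was under the 2-fold limit without WT LPS+ATP replicate 2 (0.95) and without Nlrp3-/- LPS+ATP replicate 2 (0.99).

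Of 24 inflammasome and IL-1 family genes, Nlrp3 was the one called. At an adjusted p under 0.05, 2 of the 24 were higher and 13, the targeted Nlrp3 included, were lower. These were 8.33% and 54.2%, against 35.8% and 12.6% of all genes. The list median was -0.256 (all genes 0.106), or -0.436 after median-ratio scaling (all genes -0.041). Among 15 receptors for extracellular ATP and adenosine and the ectoenzymes that convert one to the other, 1 was called. It was lower (6.67%, against 0.550% of all genes). Adora2b, the low-affinity A2B receptor for adenosine, was 31.5, 34.9 and 33.6 FPKM in WT LPS+ATP and 5.28, 6.25 and 5.94 in Nlrp3-/- LPS+ATP. The highest Nlrp3-/- library was below every wild-type library (log2 fold change -2.33 ± 0.081 SE, adjusted p = 1.90e-09 by limma). In control both genotypes were near 2 FPKM, at 1.96 ± 0.199 and 1.81 ± 0.262 (mean ± SD, n = 3 each), with an interaction term of -2.25 (adjusted p = 2.60e-07 by limma). Adora2b lies on chromosome 11, as does Nlrp3. In the gene order of GENCODE M21 it was among the 200 tested genes around Nlrp3, 100 on each side. Of these, 5 (2.50%, against 0.550% of all genes) were called lower and 9 (4.5%, against 4.48%) higher.

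Type I interferon-stimulated genes, which restrict viruses, were on balance a little lower. Of 50 tested, 0 were called higher and 4 lower with LPS+ATP, and at an adjusted p under 0.05, 5 were higher and 24 lower. Their median log2 fold change was -0.139 (all genes 0.106), or -0.330 after median-ratio scaling (all genes -0.041). The interferon-stimulated response element, a site bound by the IRF and STAT factors that drive such genes, was searched as GAAANNGAAA on both strands of the RefSeq windows that run from 250 bases before to 50 bases after a gene's start on GRCm38.p6. Windows were found for 38 of the 50 genes, and 23 of them (60.5%) held these letters, against 3.49% of all 27025 windows and 3.39% of those of tested autosomal genes. Of the 4 genes called lower, the windows of Ifit1bl1 and Rsad2 held them and those of Cmpk2 and Slfn4 did not. The 2 windows are shown 5′ to 3′ along the gene, at chr19:34601919-34602218, minus strand for Ifit1bl1 and chr12:26456403-26456702, minus strand for Rsad2, with the match, here on the opposite strand, in capitals.
Ifit1bl1: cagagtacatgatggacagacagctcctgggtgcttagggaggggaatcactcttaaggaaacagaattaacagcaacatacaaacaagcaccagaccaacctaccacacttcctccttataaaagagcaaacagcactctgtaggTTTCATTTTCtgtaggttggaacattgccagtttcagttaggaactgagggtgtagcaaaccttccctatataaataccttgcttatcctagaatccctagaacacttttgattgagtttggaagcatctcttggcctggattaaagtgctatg
Rsad2: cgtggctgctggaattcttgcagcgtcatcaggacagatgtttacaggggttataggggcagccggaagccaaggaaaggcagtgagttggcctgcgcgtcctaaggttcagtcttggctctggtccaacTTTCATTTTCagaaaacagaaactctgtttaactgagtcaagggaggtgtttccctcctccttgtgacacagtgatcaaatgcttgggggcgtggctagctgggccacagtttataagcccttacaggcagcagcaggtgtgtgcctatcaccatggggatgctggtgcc

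Ifit1bl1, of the IFIT family, was 88.6, 84.7 and 89.6 FPKM in WT LPS+ATP and 21.6, 23.5 and 25.1 in Nlrp3-/- LPS+ATP (log2 fold change -1.86 ± 0.070 SE, adjusted p = 3.72e-09 by limma). Rsad2, the antiviral enzyme viperin, was 896, 893 and 920.0 against 389, 379 and 389 FPKM (log2 fold change -1.23 ± 0.048 SE, adjusted p = 4.58e-09 by limma). Cmpk2, a mitochondrial nucleotide kinase encoded beside Rsad2, was 281, 284 and 282 against 128, 119 and 124 FPKM (log2 fold change -1.18 ± 0.046 SE, adjusted p = 4.45e-09 by limma). None of the 3 genes overlapped between genotypes. Slfn4, a Schlafen gene of myeloid cells, was 0.423 times its wild-type level (log2 fold change -1.23), but it has a near copy, Slfn3, and the counting could have split reads between them. The lower level was not limited to stimulated cells: in control the median of the list was -0.507 (all genes 0.088) and 5 genes were called lower. Of the 50 interaction terms, 36 were positive and 4 negative at an adjusted p under 0.05, against 14.7% and 13.1% of all genes.

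The direction of the interferon-induced GTPases depended on the scaling: of 18, 5 were higher and 3 lower at an adjusted p under 0.05, but 3 were higher and 9 lower after median-ratio scaling. The 1 called higher (5.56%, against 4.48% of all genes) was Igtp, a GTPase of the immunity-related family. It was at 134, 149 and 137 FPKM in WT LPS+ATP and 336, 339 and 332 in Nlrp3-/- LPS+ATP (log2 fold change 1.25 ± 0.095 SE, adjusted p = 9.24e-07 by limma). Igtp overlaps Irgm2 on the same strand, so its reads are uncertain, and it too is among the 200 neighbours of Nlrp3. In antigen presentation, 2 of 19 class I genes and 2 of 9 class II genes were called higher and 0 lower. These rises were 10.5% and 22.2% of the lists, against 4.48% of all genes. At an adjusted p alone, 4 class I genes were higher and 1 lower, and 3 higher and 10 lower after median-ratio scaling. H2-Aa, the alpha chain of the class II molecule I-A, was 2.69, 2.71 and 2.84 against 7.48, 8.17 and 8.1 FPKM (log2 fold change 1.25 ± 0.046 SE, adjusted p = 3.06e-09 by limma), and Cd74, the invariant chain that accompanies class II molecules, was 31.9, 31.1 and 31.5 against 74.3, 68.3 and 72.2 FPKM (log2 fold change 1.16 ± 0.040 SE, adjusted p = 1.93e-09 by limma). The genotypes lay closer together in control: means there were 4.63 ± 0.22 and 8.19 ± 0.0763 FPKM for H2-Aa and 45.5 ± 1.42 and 61.8 ± 2.51 for Cd74 (± SD, n = 3, wild-type first), with interaction terms of 0.54 and 0.73. The class I genes H2-Q6 and H2-Q7, at log2 fold changes of 1.32 and 1.17, share reads, since H2-Q6 is a near copy of H2-Q7 and H2-Q4.

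Costimulatory and checkpoint ligands held 13 tested genes, of which 0 were called. At an adjusted p under 0.05, 2 were higher and 8 lower (15.4% and 61.5%, against 35.8% and 12.6% of all genes). The median was -0.319 (all genes 0.106), or -0.505 after median-ratio scaling (all genes -0.041). The ones with the lowest adjusted p were Cd274, which encodes PD-L1, at 649 ± 10.2 FPKM in WT LPS+ATP and 398 ± 2.64 in Nlrp3-/- LPS+ATP (log2 fold change -0.70), Slamf7 (-0.70) and Lgals9 (-0.49). Of 20 complement and Fc receptor genes, 3 were called higher (15.0%, against 4.48% of all genes). C2, a protease of the classical pathway, was 4.4 ± 0.129 against 11.1 ± 0.445 FPKM, C4b 1.67 ± 0.252 against 4.78 ± 0.124 and C1s1 6.37 ± 0.451 against 16.2 ± 5.55 (mean ± SD, n = 3, wild-type first). All 3 genes have near copies or an overlapping gene, and 1 Nlrp3-/- library of C1s1 was at 9.75 FPKM, the others at 19.5 and 19.2. Among alternative activation genes, 2 of 17 were called higher (11.8%, against 4.48% of all genes), Ccl22 and Fn1, the matrix protein fibronectin. At an adjusted p under 0.05, 6 of this list were higher and 7 lower (all genes 35.8% and 12.6%). Fn1 was 29.8, 31.1 and 29.98 against 132, 139 and 129.8 FPKM (log2 fold change 2.10 ± 0.037 SE, adjusted p = 7.90e-12 by limma), beside a median of 1.95 for the fibroblast markers.

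**Figure D3:**
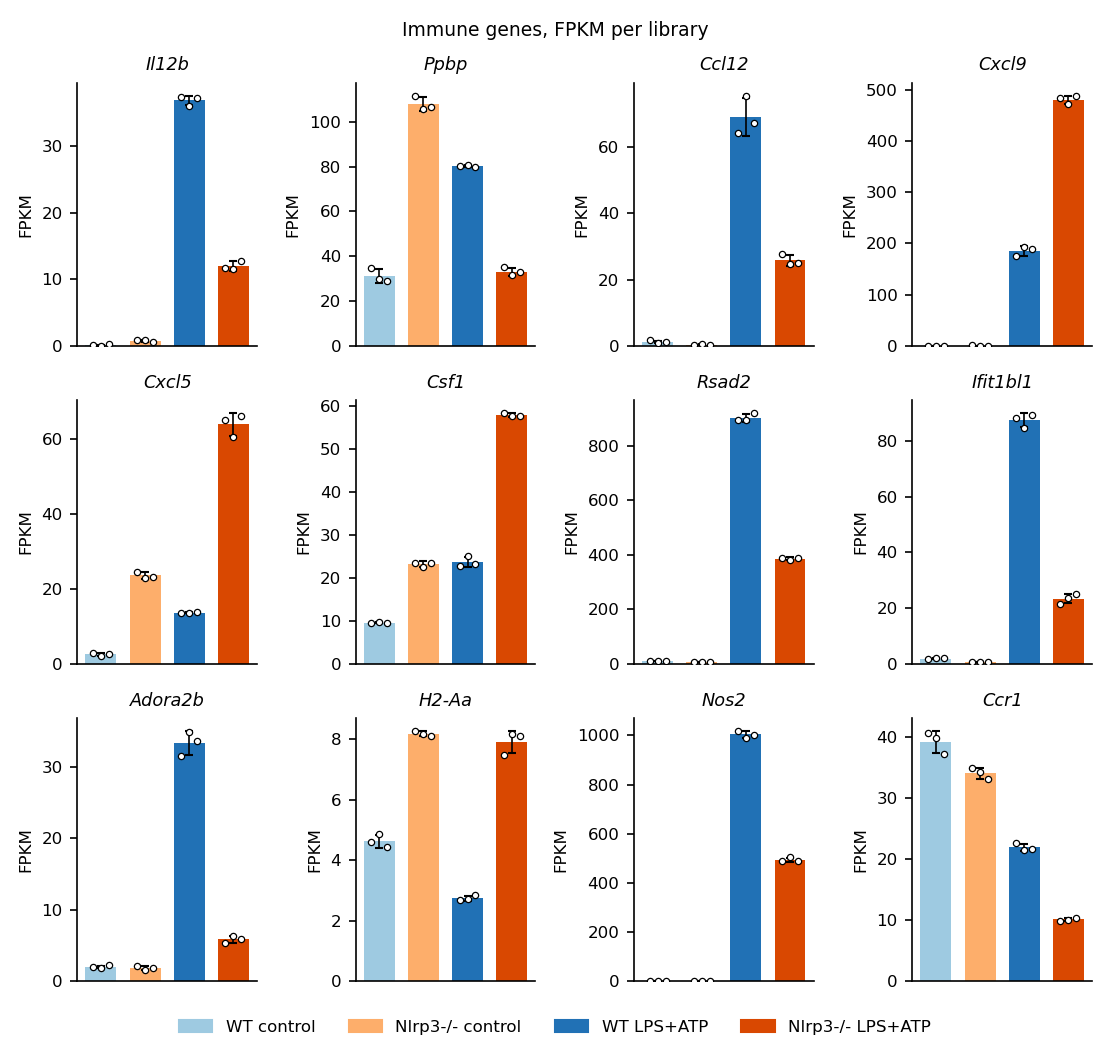
Bars are mean FPKM of 3 libraries for 12 immune genes in the 4 groups, with error bars of 1 SD and circles for single libraries. With LPS+ATP, Il12b, Ppbp, Ccl12, Rsad2, Ifit1bl1, Adora2b, Nos2 and Ccr1 are lower and Cxcl9, Cxcl5, Csf1 and H2-Aa higher in Nlrp3-/- BMDMs, and Ppbp has the reverse order in control.

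The 12 metabolic lists held 308 tested genes, of which 30 (9.74%, against 4.48% of all genes) were called higher and 5 (1.62%, against 0.550%) lower. Genes of amino acid synthesis and uptake made up a group of them. Of 25 genes of serine, proline and asparagine synthesis and targets of the stress factor ATF4, 7 were called higher and 0 lower, 17 were higher and 3 lower at an adjusted p under 0.05, and the median was 0.497 (all genes 0.106), or 0.325 after median-ratio scaling (all genes -0.041). Slc7a5, which carries large neutral amino acids into the cell, was 8.62, 9.47 and 8.85 FPKM in WT LPS+ATP and 28.1, 27.7 and 28.5 in Nlrp3-/- LPS+ATP (log2 fold change 1.54 ± 0.090 SE, adjusted p = 1.14e-07 by limma). Phgdh, the enzyme that commits glycolytic carbon to serine, was 15.6, 13.5 and 13.5 against 40.00, 42.3 and 41.2 FPKM (log2 fold change 1.48 ± 0.077 SE, adjusted p = 4.40e-08 by limma). Shmt2, which passes the serine carbon to folate in mitochondria, was 10.3, 10.8 and 9.74 against 31.6, 32.8 and 29.1 FPKM (log2 fold change 1.51 ± 0.065 SE, adjusted p = 1.04e-08 by limma). For all 3 genes the lowest Nlrp3-/- library was above the highest wild-type library, although pseudogenes of Phgdh make its reads uncertain.

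The next enzymes of serine synthesis, Psat1 and Psph, rose by 1.22 and 1.09, and the proline enzymes Aldh18a1 and Pycr1 by 1.14 and 1.13 on the log2 scale. The group was higher in Nlrp3-/- control BMDMs as well, where 12 of the 25 genes were called and the median was 0.922 (all genes 0.088). Of the interaction terms, 14 were negative and 2 positive at an adjusted p under 0.05, against 13.1% and 14.7% of all genes. The amino acid genes thus differed between genotypes in both states and by less with LPS+ATP.

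Nucleotide synthesis showed a smaller group. Of 22 genes of the pentose phosphate and nucleotide pathways, 4 were called higher (18.2%, against 4.48% of all genes) and 0 lower. After median-ratio scaling, 2 were called higher. At an adjusted p under 0.05, 13 were higher and 2 lower, and 8 higher and 5 lower after that scaling. The median was 0.239 (all genes 0.106), or 0.112 after median-ratio scaling (all genes -0.041). Ctps, which makes CTP from UTP, was 2.97, 3.09 and 2.76 FPKM in WT LPS+ATP and 12.3, 11.2 and 11.2 in Nlrp3-/- LPS+ATP (log2 fold change 1.68 ± 0.066 SE, adjusted p = 4.58e-09 by limma). Uck2, a kinase that salvages uridine and cytidine, was 3.43, 3.45 and 3.19 against 8.58, 8.88 and 8.58 FPKM (log2 fold change 1.15 ± 0.065 SE, adjusted p = 8.34e-08 by limma). Impdh2, the enzyme that limits guanine nucleotide synthesis, rose by 1.10 and Cad, which starts pyrimidine synthesis, by 1.01 on the log2 scale. Cad was under the 2-fold limit without WT LPS+ATP replicate 1 (0.97) and without Nlrp3-/- LPS+ATP replicate 3 (0.99), and a pseudogene of Impdh2 makes its reads uncertain.

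Sterol synthesis held the largest share of called genes among the metabolic lists, 13 of 24 higher (54.2%, against 4.48% of all genes) and 0 lower. All 24 were higher at an adjusted p under 0.05, against 35.8% of all genes. The median with LPS+ATP was 1.03 (all genes 0.106), or 0.879 after median-ratio scaling (all genes -0.041), and 0.508 in control (all genes 0.088), where 2 genes were called. Cyp51, the lanosterol demethylase, was 10.5, 11.3 and 10.6 FPKM in WT LPS+ATP and 34, 34.9 and 35 in Nlrp3-/- LPS+ATP (log2 fold change 1.60 ± 0.039 SE, adjusted p = 1.56e-10 by limma). Every Nlrp3-/- library was above every wild-type library. In control it was 29.5 ± 0.431 FPKM in wild-type and 45.4 ± 1.84 in Nlrp3-/- BMDMs (mean ± SD, n = 3 each). Of the interaction terms of the list, 18 were positive and 1 negative at an adjusted p under 0.05, against 14.7% and 13.1% of all genes. The sterol regulatory element, searched as TCACNCCAC, was in 1 of the 16 windows found for these genes, that of Hmgcs1 (6.25%, against 1.22% of all windows). On the export side, Abcg1, a transporter of cholesterol to lipoproteins, was the single called gene of 18 LXR targets (5.56% lower, against 0.550% of all genes). It was at 17.1, 17.5 and 17.1 against 5.41, 5.12 and 5.7 FPKM (log2 fold change -1.51 ± 0.041 SE, adjusted p = 2.92e-10 by limma).

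NAD metabolism was the list with most called falls for its size, 3 lower and 1 higher of 12. These were 25.0% and 8.33%, against 0.550% and 4.48% of all genes. Nmnat1, which makes NAD in the nucleus, was 10.1, 9.54 and 10.8 FPKM in WT LPS+ATP and 2.91, 2.17 and 2.36 in Nlrp3-/- LPS+ATP (log2 fold change -1.68 ± 0.076 SE, adjusted p = 1.50e-08 by limma). In control its log2 fold change was also -1.68. Bst1, the surface enzyme CD157 that cleaves NAD, was 138, 141 and 143 against 68.9, 65 and 64.8 FPKM (log2 fold change -1.08 ± 0.034 SE, adjusted p = 8.78e-10 by limma), whereas in control it was 18.3 ± 0.46 against 21.6 ± 0.417 (mean ± SD, n = 3 each), with an interaction term of -1.30 (adjusted p = 3.10e-08 by limma). Nnt, named above, was the other fall (-1.47), and its GENCODE symbol stands for a pair of overlapping annotated genes. Nnmt, which methylates nicotinamide, was higher, at 1.11, 1.49 and 1.05 against 3.91, 5.35 and 5.16 FPKM (log2 fold change 1.39 ± 0.13 SE, adjusted p = 5.43e-06 by limma).

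Of 14 genes of arginine, nitric oxide and itaconate metabolism, 1 was called lower and 1 higher (7.14% each, against 0.550% and 4.48% of all genes). Nos2, the inducible nitric oxide synthase, was 1020.1, 990.3 and 1003 FPKM in WT LPS+ATP and 487, 504 and 490.1 in Nlrp3-/- LPS+ATP, which is 0.491 times the wild-type level (log2 fold change -1.02 ± 0.063 SE, adjusted p = 1.66e-07 by limma). In control it was below 2 FPKM in both genotypes and higher in Nlrp3-/- BMDMs (0.191 ± 0.080 against 0.843 ± 0.168, mean ± SD, n = 3 each), with an interaction term of -1.65 (adjusted p = 4.14e-07 by limma). Srm, spermidine synthase, was 8.93 ± 1.42 against 19.2 ± 0.464 FPKM (log2 fold change 1.03), and under the 2-fold limit without WT LPS+ATP replicate 1 (0.92).

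Glycolysis and the hypoxia response held 35 tested genes, of which 2 were called higher (5.71%, against 4.48% of all genes). These were Ddit4, an inhibitor of mTORC1 (1.27), and Adm, the peptide adrenomedullin (1.36). The list median of 0.031 (all genes 0.106) became -0.160 after median-ratio scaling (all genes -0.041). In iron handling, 2 of 16 genes were called higher (12.5%, against 4.48% of all genes). They were Trf, transferrin, at 23.5, 25.8 and 24.3 against 70.2, 72.1 and 73.9 FPKM (log2 fold change 1.52 ± 0.046 SE, adjusted p = 7.18e-10 by limma), and Slc39a14, the metal transporter ZIP14, at a log2 fold change of 1.02. Slc39a14 was under the limit without WT LPS+ATP replicate 1 or 2 or Nlrp3-/- LPS+ATP replicate 2 or 3 (0.97 at the lowest), and Trf has a near copy in the annotation, Gm20425.

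No gene of the central energy pathways passed both limits. Of 22 genes of the TCA cycle and 75 nuclear-encoded subunits of oxidative phosphorylation, 0 and 0 were called, and their medians of 0.142 and 0.132 (all genes 0.106) became -0.039 and -0.039 (all genes -0.041) after median-ratio scaling. At an adjusted p under 0.05 by limma, 10 TCA cycle genes were higher and 0 lower, and 23 oxidative phosphorylation genes were higher and 1 lower. Of all genes, 35.8% were higher and 12.6% lower at this limit, and the splits turned after median-ratio scaling, to 5 higher and 7 lower for the TCA cycle and 3 higher and 11 lower for oxidative phosphorylation. The lowest adjusted p of the TCA list was that of Suclg2, a subunit of succinyl-CoA synthetase, at 1.68 ± 0.188 against 4.07 ± 0.21 FPKM (log2 fold change 0.92). Among 24 NRF2 targets, which answer oxidative and electrophilic stress, and 32 lysosomal genes, 0 were called either. Heme oxygenase Hmox1, at 4851 ± 103 against 3195 ± 10.04 FPKM (log2 fold change -0.60, mean ± SD, n = 3, wild-type first), and the lysosomal glycoprotein gene Gpnmb, at 1031 ± 10.4 against 634 ± 8.24 FPKM (-0.70), had the lowest adjusted p of their lists. Counting every gene with an adjusted p under 0.05, 6 NRF2 targets were higher and 10 lower, and 3 lysosomal genes were higher and 21 lower, with medians of -0.106 and -0.226 (all genes 0.106), or -0.293 and -0.417 after median-ratio scaling (all genes -0.041).

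**Figure D4:**
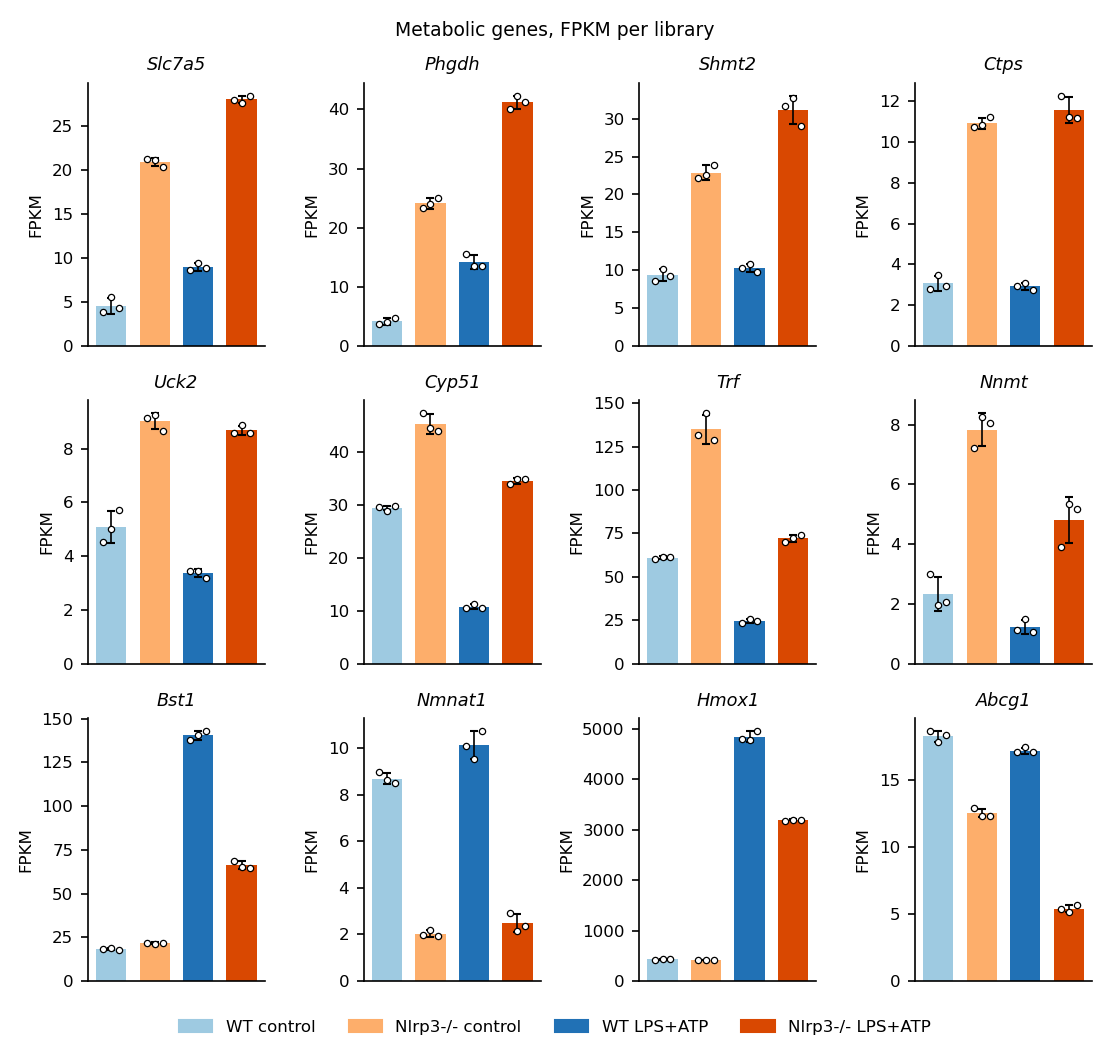
Bars are mean FPKM of 3 libraries for 12 metabolic genes in the 4 groups, with error bars of 1 SD and circles for single libraries. With LPS+ATP, Slc7a5, Phgdh, Shmt2, Ctps, Uck2, Cyp51, Trf and Nnmt are higher and Bst1, Nmnat1, Hmox1 and Abcg1 lower in Nlrp3-/- BMDMs.

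The 3 proliferation lists held 160 tested genes, of which 23 (14.4%, against 4.48% of all genes) were called higher and 1 (0.625%, against 0.550%) lower in Nlrp3-/- BMDMs with LPS+ATP. Mitotic genes were higher in Nlrp3-/- BMDMs with LPS+ATP, and by less in control. Their FPKM, summed over 73 genes, was between 360 and 370 in WT control and between 391 and 393 in Nlrp3-/- control, but between 104 and 105 in WT LPS+ATP and between 179 and 185 in Nlrp3-/- LPS+ATP. Both genotypes thus had less mitotic RNA with stimulation, and the Nlrp3-/- BMDMs had more of it than wild-type.

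Genes of this phase share promoter elements. The cell cycle genes homology region (CHR), through which the DREAM complex and B-MYB act in turn, was searched as TTTGAA, and the CCAAT box bound by NF-Y as CCAAT, on both strands of the RefSeq windows described above. Windows were found for 61 of 69 mitotic genes, of which 42 (68.9%) held the CHR letters and 43 (70.5%) the CCAAT letters. Of all windows, 18.1% and 37.9% did, and of those of tested autosomal genes 12.1% and 38.6%. Each motif was in 8 of the 11 windows found for called members. Neither was in the windows of Melk, which was called higher, and Pttg1, which was called lower. Those of Ccnb2, Cdc20 and Plk1, 3 genes with both motifs, are shown on GRCm38.p6 at chr9:70421505-70421804, minus strand, chr4:118437294-118437593, minus strand and chr7:122159185-122159484, plus strand, with TTTGAA and CCAAT in capitals.
Ccnb2: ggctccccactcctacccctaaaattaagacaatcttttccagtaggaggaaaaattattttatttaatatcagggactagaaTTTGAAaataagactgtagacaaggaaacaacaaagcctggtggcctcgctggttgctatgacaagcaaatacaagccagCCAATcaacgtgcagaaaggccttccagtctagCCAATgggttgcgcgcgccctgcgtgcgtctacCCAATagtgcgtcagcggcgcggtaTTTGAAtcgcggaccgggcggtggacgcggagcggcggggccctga
Cdc20: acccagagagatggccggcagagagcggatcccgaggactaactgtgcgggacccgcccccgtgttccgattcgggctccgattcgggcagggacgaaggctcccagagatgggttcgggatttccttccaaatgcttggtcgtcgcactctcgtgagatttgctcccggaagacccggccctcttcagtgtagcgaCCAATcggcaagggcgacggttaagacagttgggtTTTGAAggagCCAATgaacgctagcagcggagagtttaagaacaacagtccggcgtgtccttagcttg
Plk1: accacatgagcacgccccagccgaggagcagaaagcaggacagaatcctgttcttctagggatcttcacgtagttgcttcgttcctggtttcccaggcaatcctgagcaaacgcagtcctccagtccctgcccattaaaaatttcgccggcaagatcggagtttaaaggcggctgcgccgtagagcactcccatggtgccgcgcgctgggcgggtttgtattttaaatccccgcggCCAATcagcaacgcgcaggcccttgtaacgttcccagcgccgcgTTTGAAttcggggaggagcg

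Of the 71 mitotic genes tested, 12 were called higher and 1 lower with LPS+ATP (16.9% and 1.41%, against 4.48% and 0.550% of all genes). In control 0 were called. By the adjusted p alone (under 0.05), 67 were higher and 2 lower, against 35.8% and 12.6% of all genes. The median log2 fold change with LPS+ATP was 0.667 (all genes 0.106), or 0.615 after median-ratio scaling (all genes -0.041), and 0.137 in control (all genes 0.088). Interaction terms were positive for 56 of the genes and negative for 3 at an adjusted p under 0.05, against 14.7% and 13.1% of all genes. Because many of these genes were near 1 FPKM with LPS+ATP, the count depended on the pseudocount: with 0.1 in place of 1, 57 of the 71 were called higher, and with TPM in place of FPKM 45 were. Of all genes, 1217 and 1017 were called higher under these settings.

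Ccna2, cyclin A2, which drives S phase and entry into mitosis, was 0.629, 0.779 and 0.905 FPKM in WT LPS+ATP and 4.43, 4.04 and 4.54 in Nlrp3-/- LPS+ATP (log2 fold change 1.59 ± 0.061 SE, adjusted p = 3.93e-09 by limma). In control the genotypes were close, at 11.5 ± 0.157 and 12.6 ± 0.476 FPKM (mean ± SD, n = 3 each, adjusted p = 0.12 by limma), with an interaction term of 1.47 (adjusted p = 7.24e-07 by limma). Ccnb2, a B-type cyclin that activates CDK1, was 1.29, 1.68 and 1.15 against 5.68, 5.98 and 5.45 FPKM with LPS+ATP (log2 fold change 1.5 ± 0.085 SE, adjusted p = 8.41e-08 by limma). In control it was a little lower in Nlrp3-/- BMDMs, at 17.6 ± 1.69 against 14.4 ± 0.554 FPKM, and its interaction term of 1.78 (adjusted p = 1.91e-06 by limma) was the largest of the mitotic genes.

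Further along mitosis, Plk1, the kinase of centrosome maturation and spindle assembly, was 0.854, 1.23 and 0.755 FPKM in WT LPS+ATP and 4.71, 4.32 and 3.94 in Nlrp3-/- LPS+ATP (log2 fold change 1.46 ± 0.083 SE, adjusted p = 8.52e-08 by limma). Cdc20, which activates the anaphase-promoting complex, was 0.699, 1.07 and 0.723 against 3.94, 4.31 and 4.53 FPKM (log2 fold change 1.53 ± 0.083 SE, adjusted p = 6.37e-08 by limma). Top2a, the topoisomerase that untangles sister chromatids, was 1.48, 1.55 and 1.39 against 6.14, 6.3 and 6.11 FPKM (log2 fold change 1.54 ± 0.047 SE, adjusted p = 7.38e-10 by limma). None of these genes overlapped between genotypes. Ccnb1, Kif20a, Hmmr, Melk, Ckap2, Anln and Ube2c were the other called rises, with log2 fold changes between 1.02 and 1.32, and Ccnb1 has pseudogenes that could share its reads. Without replicate 3 of either genotype, Ckap2 (0.93 to 0.97) and Ube2c (0.98 to 0.99) were under the 2-fold limit, and Ube2c also without WT LPS+ATP replicate 2 (0.99).

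With the adjusted p alone, under 0.05 a pair of genes on the list were lower. Pttg1, securin, which holds back separase until anaphase, was 16.1, 17 and 18.3 FPKM in WT LPS+ATP and 8.1, 7.94 and 7.6 in Nlrp3-/- LPS+ATP (log2 fold change -1.03 ± 0.058 SE, adjusted p = 8.12e-08 by limma). It was higher with LPS+ATP than in control in wild-type, where control libraries were 6.71, 6.99 and 6.98 FPKM, unlike the summed level of the list, which was lower. Without WT LPS+ATP replicate 3 its log2 fold change was -0.98, under the 2-fold limit. Mki67, which encodes the proliferation antigen Ki-67, was 16.6, 16.1 and 15.5 against 11.3, 11.6 and 11.2 FPKM with LPS+ATP (log2 fold change -0.46), and 15.8 ± 0.235 against 16 ± 0.547 in control (mean ± SD, n = 3 each). Mki67 was singled out after its values were seen.

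DNA replication genes followed the mitotic ones. Summed over 54 genes they were between 455 and 462 FPKM in WT control, 448 and 451 in Nlrp3-/- control, 150 and 152 in WT LPS+ATP, and 226 and 228 in Nlrp3-/- LPS+ATP. Of 53 tested, 7 were called higher and 0 lower with LPS+ATP (13.2% and 0%, against 4.48% and 0.550% of all genes). With a pseudocount of 0.1, 19 were called higher, and with TPM 15, where 1217 and 1017 of all genes were. Under an adjusted p of 0.05, 41 were higher and 0 lower (77.4% and 0%, against 35.8% and 12.6% of all genes). The median with LPS+ATP was 0.475 (all genes 0.106), or 0.404 after median-ratio scaling (all genes -0.041), and 0.180 in control (all genes 0.088). Interaction terms were positive for 30 genes and negative for 0 at an adjusted p under 0.05, against 14.7% and 13.1% of all genes.

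Rrm2, the small subunit of ribonucleotide reductase, which makes deoxynucleotides, was 1.46, 1.27 and 0.937 FPKM in WT LPS+ATP and 5.55, 5.53 and 5.49 in Nlrp3-/- LPS+ATP (log2 fold change 1.56 ± 0.072 SE, adjusted p = 1.79e-08 by limma). Uhrf1, which carries DNA methylation over to new strands, was 1.1, 1.25 and 1.26 against 5.4, 4.92 and 4.64 FPKM (log2 fold change 1.44 ± 0.060 SE, adjusted p = 8.15e-09 by limma). Mcm5, a subunit of the replicative helicase, was 2.72, 2.36 and 2.24 against 7.44, 7.0 and 7.15 FPKM (log2 fold change 1.26 ± 0.061 SE, adjusted p = 2.57e-08 by limma). Their interaction terms were 1.20, 1.23 and 1.10, each called. Dut, which removes dUTP, rose by 1.55 with LPS+ATP and differed in control too, by 0.97, and Rrm1, Mcm7 and Lig1 rose by between 1.01 and 1.12 on the log2 scale. Lig1 was under the limit without replicate 2 or 3 of either genotype (0.97 at the lowest).

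G1 cyclins, CDK inhibitors and growth regulators held 36 tested genes. With LPS+ATP, 4 (11.1%, against 4.48% of all genes) were called higher and 0 lower. In control 3 were called higher and 0 lower, where 6.04% of all genes were called higher. The list median with LPS+ATP was 0.209 (all genes 0.106), or 0.088 after median-ratio scaling (all genes -0.041). Cdkn2a, whose products p16 and p19ARF halt the cycle, was 0.664, 0.731 and 0.383 FPKM in WT LPS+ATP and 4.01, 3.78 and 3.75 in Nlrp3-/- LPS+ATP (log2 fold change 1.61 ± 0.086 SE, adjusted p = 5.55e-08 by limma). Its log2 fold change in control was 1.66. Ccnd2, cyclin D2, which starts the cycle with CDK4 and CDK6, was 4.05, 3.42 and 3.91 against 12.6, 11.5 and 11.6 FPKM with LPS+ATP (log2 fold change 1.43 ± 0.077 SE, adjusted p = 5.86e-08 by limma) and 1.79 ± 0.249 against 10.6 ± 0.641 in control (mean ± SD, n = 3 each). Cdkn2b, the inhibitor p15, rose by 1.21 and Myc, the growth regulator, by 1.20 with LPS+ATP, against 1.99 and 0.99 in control. The 4 called genes included both promoters and inhibitors of the cycle.

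Fibroblast markers, whose cells can divide too, were higher in Nlrp3-/- than in wild-type cultures in both states. Their sums were 2388 to 2421 against 381 to 394 FPKM in control and 1840 to 1857 against 389 to 404 with LPS+ATP. The part of these cells in the cell-cycle differences was not tested.

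**Figure D5:**
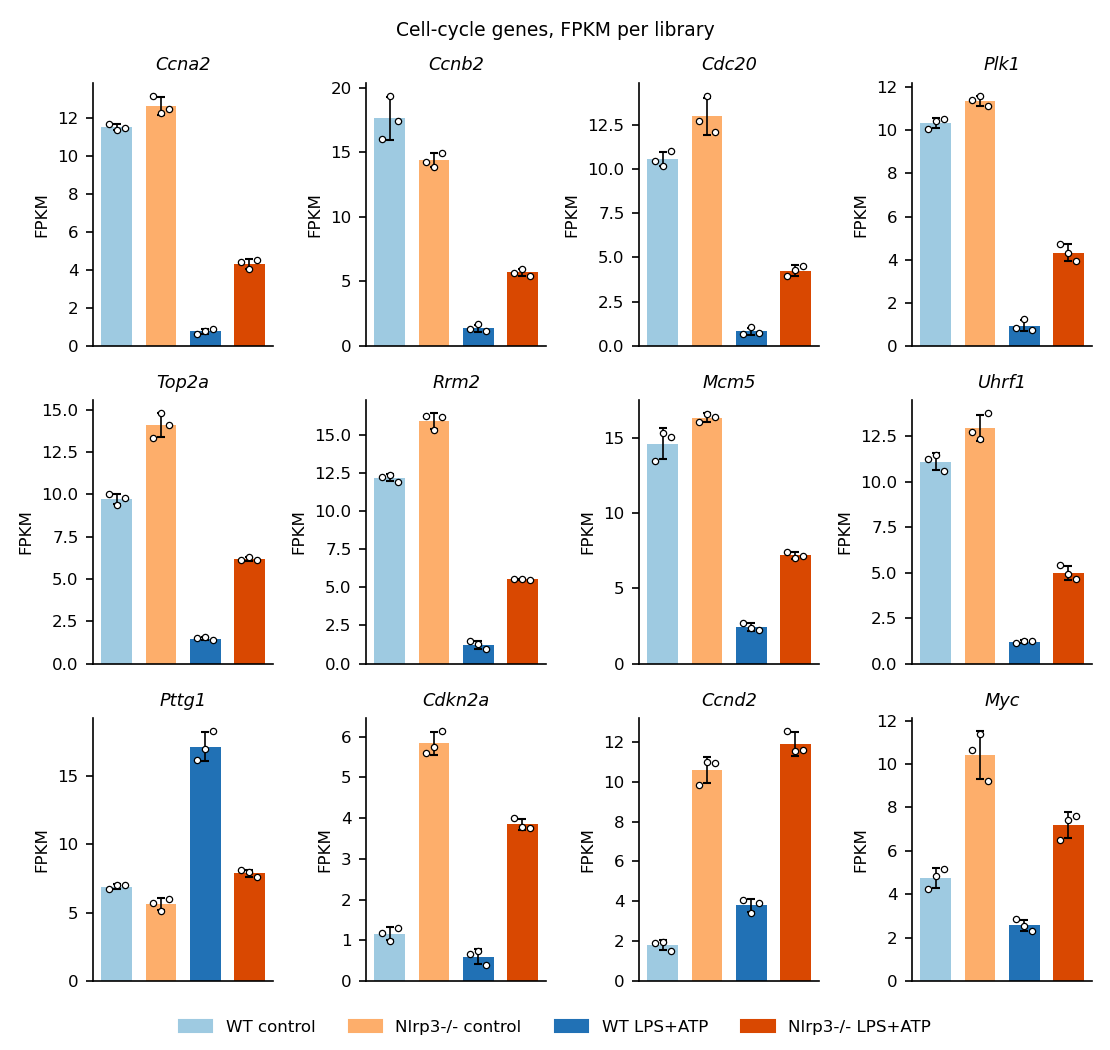
Bars are mean FPKM of 3 libraries for 12 cell-cycle genes in the 4 groups, with error bars of 1 SD and circles for single libraries. Ccna2, Ccnb2, Cdc20, Plk1, Top2a, Rrm2, Mcm5 and Uhrf1 differ less between genotypes in control and are higher in Nlrp3-/- BMDMs with LPS+ATP, Pttg1 is lower with LPS+ATP, and Cdkn2a, Ccnd2 and Myc are higher in Nlrp3-/- BMDMs in both states.

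The 12 largest rises named over all autosomal genes included 3 members of the fibroblast and granulocyte lists, Col1a1, Acta2 and S100a9. Col1a1, a chain of type I collagen, was 82.4, 81 and 82.1 FPKM in WT LPS+ATP and 505, 509 and 510.1 in Nlrp3-/- LPS+ATP (log2 fold change 2.62 ± 0.022 SE, adjusted p = 2.46e-14 by limma). Acta2, smooth muscle actin, was 20.7, 20.3 and 19.6 against 124, 124 and 123 FPKM, and the matrix genes Wisp2 and Thbs2 rose by 2.80 and 2.49 on the log2 scale. S100a9, a subunit of calprotectin in neutrophils, was 46.2, 54.9 and 48.5 against 261, 257 and 283 FPKM (log2 fold change 2.40 ± 0.071 SE, adjusted p = 6.38e-10 by limma). The stefin genes Stfa1, Stfa2l1 and BC100530, which are near copies of each other or of further stefins, rose by 2.65, 2.77 and 2.88. All of these had also been called higher in control.

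Granzymes, proteases of cytotoxic granules, were among the largest rises too. Gzmb was 0.461, 0.271 and 0.273 FPKM in WT LPS+ATP and 6.83, 6.09 and 5.92 in Nlrp3-/- LPS+ATP (log2 fold change 2.45 ± 0.093 SE, adjusted p = 3.81e-09 by limma), and Gzmc 1.0, 1.88 and 1.64 against 12.7, 13.1 and 13.1 FPKM (log2 fold change 2.50 ± 0.12 SE, adjusted p = 2.49e-08 by limma). Agpat4, an enzyme of phospholipid synthesis, was 0.764, 0.845 and 1.13 against 12.9, 12.9 and 12 FPKM (log2 fold change 2.83 ± 0.11 SE, adjusted p = 4.18e-09 by limma). In control the 3 genes had log2 fold changes of 2.11, 2.55 and 2.86. The largest rise of all was that of Olfr56 (3.56), an odorant receptor gene whose annotation overlaps Ifi47, an interferon-induced GTPase that is named here for that reason. Their reads cannot be assigned with certainty, and Ifi47 itself was 15, 14.5 and 90.4 FPKM in WT LPS+ATP and 68.3, 72.7 and 62.4 in Nlrp3-/- LPS+ATP, with overlapping libraries (adjusted p = 0.067 by limma).

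The 12 largest falls included Nlrp3, Adora2b, Il12b, Ifit1bl1 and Nmnat1, given above. Hspa1a, the inducible heat shock protein HSP70, was 152, 156 and 156 FPKM in WT LPS+ATP and 45, 45.4 and 45.1 in Nlrp3-/- LPS+ATP (log2 fold change -1.76 ± 0.062 SE, adjusted p = 2.20e-09 by limma). In control it was 1.18 ± 0.135 against 1.96 ± 0.262 FPKM (mean ± SD, n = 3 each), with an interaction term of -2.19 (adjusted p = 5.47e-08 by limma), and its near copy Hspa1b makes the split of reads uncertain. Cited4, a partner of the coactivators CBP and p300, was 3.53, 3.69 and 3.95 against 0.436, 0.763 and 0.587 FPKM (log2 fold change -1.57 ± 0.088 SE, adjusted p = 8.28e-08 by limma), and Rnf225, a RING finger gene, 6.53, 5.5 and 5.82 against 1.27, 1.16 and 1.63 FPKM (log2 fold change -1.57 ± 0.080 SE, adjusted p = 4.01e-08 by limma). Neither passed the test in control, where adjusted p was 0.415 and 0.713 by limma.

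Other large falls were present in both states. Tpm3-rs7, a near copy of the tropomyosin gene Tpm3, was 163, 167 and 159 FPKM in WT LPS+ATP and 14.8, 14.7 and 14.8 in Nlrp3-/- LPS+ATP (log2 fold change -3.37 ± 0.046 SE, adjusted p = 1.60e-12 by limma), and its log2 fold change in control was -3.44. Slc22a4, the carrier OCTN1 of ergothioneine, was 44, 45.1 and 42.7 against 12.8, 12.5 and 12.9 FPKM (log2 fold change -1.71 ± 0.035 SE, adjusted p = 3.24e-11 by limma), and -2.41 in control on the log2 scale. It lies on chromosome 11 among the 200 neighbours of Nlrp3. Cd1d2, a near copy of the lipid-presenting Cd1d1, was 2.98, 3.23 and 2.93 against 0.293, 0.244 and 0.304 FPKM, which is -1.66 on the log2 scale, and -0.78 without stimulation. AC164623.1, which has no gene name, was 2.88, 2.9 and 3.13 FPKM in WT LPS+ATP and was listed at 0 in the 3 Nlrp3-/- libraries.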

How the data were processed

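RNA sequencing libraries of 12 BMDM cultures (4 groups of 3) were analysed. The authors deposited 1 table of FPKM for all libraries. The labels name the build GRCm39 and DESeq2 1.24.0, with no role stated, and the aligner and annotation are not given in the sources used here. FPKM holds no read depth, so no count test was run. The members and gene lists were chosen with earlier results of these data known.

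Gene symbols were those of the deposited table. Chromosomes, gene order and overlaps of genes came from GENCODE M21 (GRCm38), which matched 55154 of 55335 gene IDs, and no gene coordinates are printed from it. Tests used limma 3.58.1 in R 4.3.3 on log2(FPKM + 1), for genes that reached 1 FPKM in 3 or more of the 12 libraries, with 1 mean per group over the 12 libraries, a mean-variance trend and Benjamini-Hochberg adjustment over 12622 genes. Interaction terms are the genotype difference with LPS+ATP minus that in control. Genes with a near copy were listed by blastn 2.17.0 (at least 95% identity over at least 20% of a transcript). Promoter windows came from RefSeq (GRCm38.p6), by symbol, for list members outside chromosome 18.

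Named were Nlrp3, in each list up to 4 called rises and 3 called falls (or, with none called, up to 3 genes with the lowest adjusted p), the 12 largest rises and falls over all autosomal genes without library overlap and without symbols of the Gm or Rik kind, other-cell markers, and further called list members. Some genes within this rule are not reported here. The fits were tested on simulated data. Alternatives were another pseudocount, filter, unit (TPM), scaling, fold limit, replicate block, no trend, the LPS+ATP libraries alone, and leaving out each LPS+ATP library.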

Additional observations from a re-analysis of the deposited data

Results flagged for a closer look

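The genotype difference differed between LPS+ATP and control, by limma's interaction term with an adjusted p under 0.05 and a size of at least 1 on the log2 scale, for the 47 genes given here, 7 of which were chosen after their values were seen. Other members with such a term, which the naming rule did not name, are not given. In the values below, a positive term means that Nlrp3-/- stood higher relative to wild-type with LPS+ATP than in control.

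Cell-cycle genes had positive terms: Ccnb2 1.78, Ccna2 1.47, Plk1 1.33, Cdc20 1.26, Ccnb1 1.25, Uhrf1 1.23, Rrm2 1.20, Kif20a 1.18, Mcm5 1.10 and Top2a 1.05. Positive too were the terms of Olfr56 (3.24), Dusp2 (1.32), Cxcl9 (1.21) and AC164623.1 (1.08). For AC164623.1 the genotypes lay further apart in control.

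Immune and metabolic genes that were lower in Nlrp3-/- BMDMs with LPS+ATP had negative terms: Ppbp -3.01, Adora2b -2.25, Il12b -2.21, Nlrp3 -1.67, Nos2 -1.65 and Bst1 -1.30. The same was found for Hspa1a (-2.19), Cited4 (-1.66) and Rnf225 (-1.61).

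Granulocyte genes had negative terms, since their genotype difference was larger in control: Mpo -3.58, Elane -2.72, Ms4a3 -2.44, Prtn3 -2.13, Lcn2 -2.08, Ctsg -1.91, Fcnb -1.42 and Cebpe -1.20. The stefins Stfa1, BC100530 and Stfa2l1, which share near-identical sequence, were at -1.47, -1.25 and -1.19. Markers of mast, lymphoid and erythroid cells with negative terms were Hdc (-1.22), Prss34 (-1.36), Nkg7 (-1.42), Hbb-bs (-1.35), Hbb-bt (-1.18) and Epor (-1.23).

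The 7 genes chosen after their values were seen were Inhba (-2.83), Fpr2 (-2.35), Arg1 (-2.34), Fpr1 (-2.16) and Acod1 (-2.07), with negative terms, and Ccl4 (1.43) and Ifit3 (1.41), with positive ones.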

How the results depend on the processing

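Depth in reads is not given by FPKM, so differences in genes near 1 FPKM rest on few fragments, and donor sex, supplier and genotype cannot be told apart. With a pseudocount of 0.1, 1217 genes were called higher and 131 lower, with TPM 1017 and 106, and with a fold limit of 1.5 1380 and 278. Median-ratio scaling called 110 lower. At an adjusted p alone, 2688 genes were higher with the filter at 5 FPKM and 2756 after median-ratio scaling, while 3318 were lower after median-ratio and 2520 after upper-quartile scaling. Interaction calls were 263 positive and 351 negative with the pseudocount of 0.1, 195 and 292 with TPM, and 414 and 601 with the fold limit of 1.5. In the mitosis list 57, 45 and 46 genes were called higher under these 3 settings, and in the DNA replication list 19, 15 and 19. The fold limit of 1.5 called 8 interferon-stimulated genes lower and 12 of the serine list higher. Cd14 changed sign, from 0.02 to -0.10 after upper-quartile and -0.17 after median-ratio scaling. Of 131 called genes named or listed as called members, 108 kept their call after median-ratio scaling and 119 after upper-quartile scaling. Leaving out 1 library gave 537 to 550 genes called higher and 61 to 68 lower. It ended a call for at most 7 of the 131. Replicate numbers were not treated as pairs, since deviations of same-numbered libraries from their group means correlated at -0.051, -0.044 and 0.052. The replicate block gave 545 and 68 genes called and 85 and 174 interaction calls, and changed no call of a named gene.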

Other observations

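Several LPS-induced genes of the lists differed between genotypes in control and did not pass both limits with LPS+ATP. They were chosen after their values were seen. Arg1, arginase 1, was 1.14 ± 0.0896 FPKM in WT control and 12.6 ± 0.675 in Nlrp3-/- control (mean ± SD, n = 3 each), and 16.4 ± 0.386 against 20.9 ± 1.03 with LPS+ATP. Its log2 fold change was 2.67 in control and 0.33 with LPS+ATP, with an interaction of -2.34 (adjusted p = 7.49e-09 by limma). Acod1, which makes itaconate, went from 1.31 in control to -0.75 with LPS+ATP (interaction -2.07, adjusted p = 7.49e-09 by limma). Inhba, a subunit of activin A, went from 2.04 to -0.79 (interaction -2.83, adjusted p = 3.46e-10 by limma). The formyl peptide receptors Fpr1 and Fpr2 had log2 fold changes of 2.25 and 2.20 in control and 0.094 and -0.15 with LPS+ATP. Fpr1 and Fpr2 are expressed by neutrophils as well, whose markers were higher in the Nlrp3-/- control cultures (2327 to 2360 against 662 to 687 FPKM in sum), and the part of those cells was not tested.

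The opposite was seen for the chemokine Ccl4, whose log2 fold change was -1.56 in control and -0.13 with LPS+ATP, with an interaction of 1.43 (adjusted p = 7.24e-07 by limma). Ifit3, an interferon-stimulated gene, went from -1.11 to 0.30 (interaction 1.41, adjusted p = 1.38e-07 by limma).

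On chromosome 11, which carries Nlrp3, 14 of 1041 tested genes (1.34%) were called lower with LPS+ATP, the highest share of any autosome, and 43 (4.13%) were called higher. Over all autosomal genes 0.550% were called lower and 4.48% higher. The 14 lower genes of chromosome 11 include Nlrp3 itself. The 5 of these lower genes among the 200 tested genes around Nlrp3 were Gm12220, Slc22a4, Hist3h2a, 2610507I01Rik and Adora2b. This count was also made after values were seen.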
